A study of Mus musculus with 20 samples.

Results

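Replication protein A (RPA) and the Atr-Chk1 checkpoint that reads it were followed at the mRNA level through 10 genes taken by symbol for their role, with earlier results of these data known: Rpa1, Rpa2 and Rpa3, Atr and Atrip, Topbp1, Clspn, Timeless, Tipin and Chek1. All 10 were listed among the 13107 genes of the Myc experiment and among the 11210 genes of the HU experiment. The libraries came from cultured p19/Nras cells, which derive from an Nras-driven liver tumor of a p19/Arf-null mouse, so that every group lacked p19/Arf and carried Nras. In the Myc experiment, a control line (sgCtrl, Trim33-WT) and the sgTrim33 lines Trim33-KO1 and Trim33-KO2 carried either the empty pWZL vector (Ctrl) or a Myc vector. In the HU experiment, Trim33-WT (sgCtrl) and Trim33-KO (sgTrim33) cells received vehicle or hydroxyurea (HU), a ribonucleotide reductase inhibitor that starves replication forks of nucleotides, at 1 mM for 4 hours. Each of the 10 groups had 2 libraries, and the labels do not say whether these came from separate cultures, so that p-values measure the spread between libraries, which may be technical. A legend of the study gives a larger n for its RNA-seq of the KO lines than the 2 libraries per group here. Another legend speaks of independent RNA-seq experiments without tying them to these libraries. Whether a KO line was a clone, and whether the KO cells of the HU experiment were KO1 or KO2, was not given either.

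RPA is the trimer of Rpa1, Rpa2 and Rpa3 that coats single-stranded DNA, which appears wherever the helicase runs ahead of the polymerases. RPA-coated DNA recruits the kinase Atr through its partner Atrip, Topbp1 switches the kinase on, and Claspin (Clspn) with the fork-travelling pair Timeless and Tipin hands the signal to the effector kinase Chk1 (Chek1), which holds back origin firing and entry into mitosis. Many of these genes are transcribed in a cell cycle-dependent manner from promoters bound by E2f factors, and checkpoint signaling itself runs through phosphorylation, which mRNA counts do not record.

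In the mouse assembly used for mapping (mm9; annotation GENCODE M1), 5 of the 10 genes lie on chromosome 9, namely Chek1 at chr9:36516067-36534650 on the minus strand, Tipin at chr9:64129414-64152599, Atr at chr9:95758016-95852063 and Topbp1 at chr9:103207545-103252762 on the plus strand, and Atrip at chr9:108960447-108976638 on the minus strand. Clspn (chr4:126234179-126271147) and Rpa2 (chr4:132324247-132334667) lie on the plus strand of chromosome 4, Timeless (chr10:127669119-127689997) on the plus strand of chromosome 10, and Rpa3 (chr6:8205936-8209173) and Rpa1 (chr11:75111668-75161826) on the minus strand. Atrip shares 1314 exon bases with Trex1 on the same strand, so that reads from these overlapping genes may have been split or dropped in counting, and Atrip values are uncertain for that reason. Atr shares 187 and 151 exon bases with a pseudogene and a long noncoding RNA on the opposite strand, and Timeless shares 113 with another noncoding RNA. Whether counting used strand was not given in the sources used here.

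Promoters are shown for the RPA genes, whose mRNAs moved apart, for Clspn, which had the largest rise in the KO lines below, and for Topbp1, whose E2F words overlapped. RefSeq promoters (build GRCm38.p6, 250 bases before each annotated start searched on both strands) were found for 9 genes, all but Tipin. An E2F word, taken as TTCCCGC, or as TTGGCGC, or as TTCGCGC, or else as TTGCCGC, occurred in 3 of the 9 (Rpa2, Rpa3 and Topbp1) and in 9.01% of the 27025 genes with a promoter. The CCAAT box, written CCAAT, occurred in 5 of the 9 (Rpa1, Rpa2, Rpa3, Atrip and Clspn) and in 37.5% of all genes. The E-box CACGTG, the word that Myc binds with Max, occurred in Rpa1 alone and in 6.86% of all genes, and the CHR word TTTGAA occurred in none of the 9 and in 18.3%. Capitals mark these words in the following stretches of 100 bases, which end at the base before the start except for Topbp1, where the stretch runs from 150 to 51 bases before it. Words on the other strand are shown as their reverse complement, such as ATTGG for the CCAAT box, and in Topbp1 a pair of E2F words, 1 on each strand, overlap.
Rpa1, chr11:75348384-75348483, minus strand: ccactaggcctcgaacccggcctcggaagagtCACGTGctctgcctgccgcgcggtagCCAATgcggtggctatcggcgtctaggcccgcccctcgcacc
Rpa2, chr4:132768260-132768359, plus strand: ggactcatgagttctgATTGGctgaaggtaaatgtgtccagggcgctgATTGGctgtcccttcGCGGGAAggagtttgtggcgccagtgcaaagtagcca
Rpa3, chr6:8259142-8259241, minus strand: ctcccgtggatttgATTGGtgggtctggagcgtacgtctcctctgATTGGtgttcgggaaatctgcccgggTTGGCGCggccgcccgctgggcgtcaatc
Clspn, chr4:126556880-126556979, plus strand: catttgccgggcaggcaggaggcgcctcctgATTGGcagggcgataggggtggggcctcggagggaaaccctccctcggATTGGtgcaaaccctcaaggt
Topbp1, chr9:103305177-103305276, plus strand: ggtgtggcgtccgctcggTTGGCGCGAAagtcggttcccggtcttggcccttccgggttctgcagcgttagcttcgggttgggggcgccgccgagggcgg
Rpa2 and Rpa3, whose mRNAs went opposite ways with the Ctrl vector, each held an E2F word and a pair of CCAAT boxes within 100 bases of the start. The matches are descriptions of the letters, and binding was not measured here.

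Total counts were 14753177 to 17949430 per library in the Myc experiment and 2315327 to 3082202 in the HU experiment, and the counts of the 10 genes ran from 212 to 4782 and from 34 to 1012 per library. Levels are given as CPM, counts scaled to library size by edgeR's TMM method, and changes as log2 fold changes (log2FC) with their standard error (SE) from edgeR's quasi-likelihood test; p-values were adjusted over all genes, and a gene passed below 0.01 in the Myc experiment and below 0.05 in the HU experiment. Trim33 mRNA was lower in KO1 and KO2 than in WT with the Ctrl vector (log2FC −0.99 and −0.31) and in the KO of the HU experiment, but with the Myc vector the libraries labelled KO1 exceeded those labelled WT (log2FC 0.40, SE 0.0686, edgeR's adjusted p = 0.000243). Relative to the Ctrl vector, the WT Myc libraries held less of it (log2FC −0.82, edgeR's adjusted p = 6.98e-08) and the KO1 Myc libraries more (log2FC 0.57, edgeR's adjusted p = 4.44e-06). The KO2 Myc libraries also held less (log2FC −0.71, edgeR's adjusted p = 3.87e-07), at 124.1 and 124.7 CPM. That is near KO1 Ctrl (123.4 and 130.4 CPM), whereas KO1 Myc (185.4 and 192.5 CPM) was nearer to KO2 Ctrl (200.9 and 206.8 CPM). KO2 Myc did not pass against WT Myc for Trim33 (log2FC −0.20, edgeR's adjusted p = 0.0263). A mix-up of labels among the Myc-vector libraries was not tested, so these groups are named by their labels. Every comparison below that uses the WT Myc or KO1 Myc libraries takes its direction from labels that Trim33 mRNA goes against. Comparisons with KO2 Myc rest on a label that Trim33 mRNA did not separate from WT Myc. Of 18 hepatocyte markers, the tables listed 4 and 5 (Afp, Krt8, Krt18, Foxa2 and, in the HU experiment, Apob), with Alb and Hnf4a absent; 7 and 5 of 8 mesenchymal markers were listed, 3 of 5 cholangiocyte markers (Krt19, Sox9 and Spp1), 1 of 6 leukocyte markers (Cd68) and none of 4 endothelial markers. The 24 S phase markers summed to 1904 to 2008 CPM in the WT Ctrl libraries and to 2834 to 3619 CPM in the other 10 libraries of the Myc experiment, and 20 G2/M markers to 2602 to 2701 against 3131 to 4414 CPM. Every comparison with WT Ctrl below uses these same libraries, and the part of the S phase and G2/M markers in its results was not tested. In bulk RNA, fewer cells in a phase and less RNA per cell cannot be told apart. For unchallenged cells, the study reports no effect of Trim33 knockout on growth or on cell cycle distribution, from growth curves and DNA content. Its legend names no vector for those cells.

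With the Ctrl vector, loss of Trim33 was accompanied by higher mRNA of 7 of the 10 genes in both KO lines and by lower mRNA of Rpa3, while Atr and Atrip did not pass. The rises ran from 1.45-fold (Chek1) to 2.67-fold (Clspn) in KO1 and from 1.54-fold (Tipin) to 3.12-fold (Clspn) in KO2. Of all genes, 52.2% passed in KO1 (25.5% higher, 26.7% lower) and 49.9% in KO2 (23.3% higher, 26.6% lower). The median log2FC over the 10 genes was 0.67 in KO1 and 0.70 in KO2, against −0.00362 and −0.0112 over all genes. Of the S phase markers, 22 of 24 were higher in each line, and of the G2/M markers 14 and 18 of 20. Of the 7 mesenchymal markers listed, 6 were higher in KO1, while 2 were higher and 3 lower in KO2, and of the 4 hepatocyte markers 2 were lower in each line. Of the 3 cholangiocyte markers, 2 were lower in KO1 (median log2FC of the 3 −1.75) and 3 in KO2 (−1.81); the part of these markers was not tested.

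**Figure D1:**
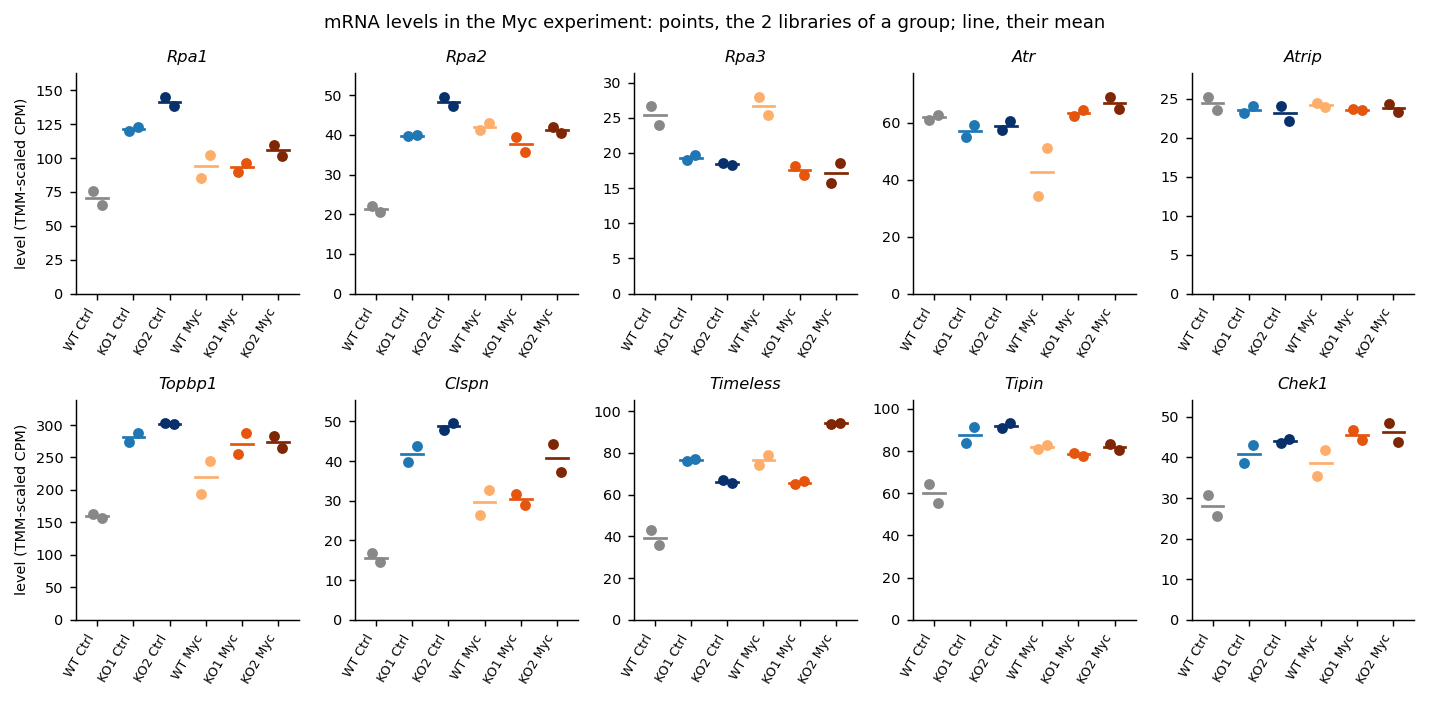
Level of each of the 10 mRNAs (vertical axis, TMM-scaled CPM, from 0) in the 6 groups of the Myc experiment. Points are the 2 libraries of a group and lines their mean; for Rpa1, Rpa2, Topbp1, Clspn, Timeless, Tipin and Chek1 both WT Ctrl libraries lie below every other library, for Rpa3 the 4 libraries labelled WT lie above the 8 labelled KO, and Atrip stays between 22.1 and 25.2 CPM.

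Within RPA, the subunits split. Rpa1, the large subunit that makes most of the contact with DNA, was at 75.5 and 65.1 CPM in WT Ctrl, at 120.2 and 123.2 CPM in KO1 Ctrl and at 145.2 and 138.1 CPM in KO2 Ctrl. These groups did not overlap, and Rpa1 rose in KO1 (log2FC 0.79, SE 0.086, edgeR's adjusted p = 6.44e-07) as well as KO2 (log2FC 1.01, SE 0.0855, adjusted p = 4.1e-08 in edgeR's test). Rpa2, the subunit phosphorylated by checkpoint kinases, was at 22.1 and 20.4 CPM in WT Ctrl, at 39.6 and 39.9 CPM in KO1 Ctrl and at 49.6 and 47.2 CPM in KO2 Ctrl. It rose by a log2FC of 0.90 in KO1 (SE 0.0805, edgeR's adjusted p = 6.71e-08) and of 1.19 in KO2 (SE 0.079, edgeR's adjusted p = 2.62e-09). Rpa3, the smallest subunit, went the other way: its level was 26.7 and 24.0 CPM in WT Ctrl, 19.0 and 19.7 CPM in KO1 Ctrl, and 18.6 and 18.2 CPM in KO2 Ctrl. Its log2FC was −0.39 in KO1 (SE 0.1, edgeR's adjusted p = 0.0029) and −0.46 in KO2 (SE 0.101, adjusted p = 0.000825 in edgeR's test). The Rpa3 call was lost in KO1 without WT Ctrl replicate 1 (log2FC −0.31, edgeR's adjusted p = 0.0428), KO1 Ctrl replicate 1 (−0.36, 0.0277) or KO1 Ctrl replicate 2 (−0.42, 0.0136), and in KO2 without WT Ctrl replicate 1 (−0.38, 0.0166).

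The split was visible as a ratio of read counts within each library, which does not depend on the scaling. Rpa2 had 0.828 and 0.852 counts for each Rpa3 count in WT Ctrl, against 2.02 and 2.09 for KO1 Ctrl and 2.59 and 2.67 for KO2 Ctrl. Rpa1 had 2.71 and 2.83 counts for each Rpa3 count in WT Ctrl, against 6.25 and 6.34 for KO1 Ctrl and 7.58 and 7.83 for KO2 Ctrl. The ratio of Rpa1 to Rpa2 moved far less, from 3.18 and 3.41 in WT Ctrl to 3.04 and 3.09 with loss of Trim33 in KO1 and 2.93 in both KO2 Ctrl libraries. With the Myc vector, the ratio of Rpa2 to Rpa3 was 1.47 and 1.69 for the label WT Myc, 2.12 and 2.17 for KO1 Myc, and 2.18 and 2.69 for KO2 Myc. These ratios restate the levels above and were not tested apart from them.

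**Figure D2:**
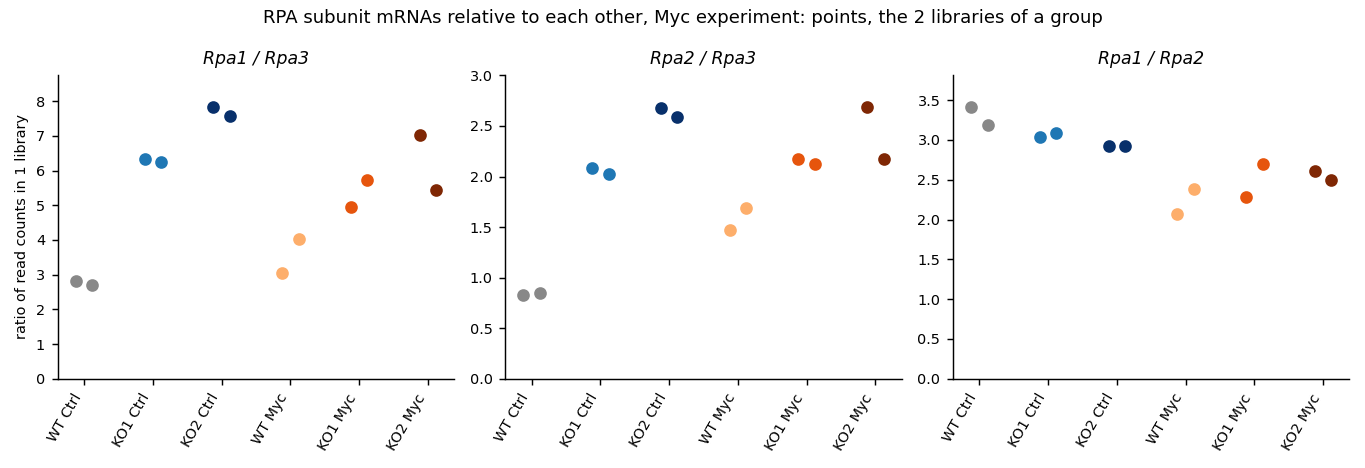
Ratio of read counts between RPA subunit mRNAs within each library of the Myc experiment (vertical axes, ratio, from 0; left Rpa1 over Rpa3, middle Rpa2 over Rpa3, right Rpa1 over Rpa2). Points are the 2 libraries of a group; both ratios to Rpa3 were lowest in WT Ctrl (2.71 to 2.83 and 0.828 to 0.852) and highest in single libraries of KO2 (7.83 and 2.69), while Rpa1 over Rpa2 stayed between 2.08 and 3.41.

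At the apex of the checkpoint, the kinase and its partner did not pass. Atr was at 61.0 and 62.6 CPM in WT Ctrl, 54.9 and 59.1 CPM in KO1 Ctrl, and 57.3 and 60.6 CPM in KO2 Ctrl. Both KO groups lay below WT, by less than the test could separate from the spread (KO1 log2FC −0.12, 95% interval −0.35 to 0.11; KO2 −0.07, −0.30 to 0.16). Atrip, the adaptor that binds RPA, was at 25.2 and 23.6 CPM in WT Ctrl, 23.1 and 24.0 CPM in KO1 Ctrl, and 24.1 and 22.1 CPM in KO2 Ctrl, and its groups overlapped (KO1 log2FC −0.05, 95% interval −0.21 to 0.11; KO2 −0.08, −0.24 to 0.08). Topbp1, the activator of the kinase, was at 162.5 and 156.5 CPM in WT Ctrl, 274.5 and 287.5 CPM in KO1 Ctrl, and 302.9 and 301.7 CPM in KO2 Ctrl. It rose in KO1 (log2FC 0.82, SE 0.0875, edgeR's adjusted p = 5.51e-07) as well as KO2 (log2FC 0.92, SE 0.0874, adjusted p = 1.58e-07 in edgeR's test).

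Clspn, the adaptor that presents Chk1 to the kinase, had the largest change of the 10. Its level was 16.7 and 14.5 CPM in WT Ctrl, 39.7 and 43.8 CPM in KO1 Ctrl, and 47.9 and 49.6 CPM in KO2 Ctrl. The log2FC was 1.42 in KO1 (SE 0.119, edgeR's adjusted p = 3.25e-08) and 1.64 in KO2 (SE 0.118, edgeR's adjusted p = 6.01e-09). Timeless, which holds polymerase and helicase together at the fork, was at 42.8 and 36.0 CPM in WT Ctrl, 76.0 and 76.96 CPM in KO1 Ctrl, and 67.0 and 65.5 CPM in KO2 Ctrl. Its partner Tipin was at 64.4 and 55.5 CPM in WT Ctrl, 83.8 and 91.2 CPM in KO1 Ctrl, and 90.9 and 93.2 CPM in KO2 Ctrl. Timeless rose more than Tipin in KO1 (log2FC 0.96, SE 0.0756, and 0.55, SE 0.0718) and by a more similar amount in KO2 (0.75, SE 0.0763, and 0.62, SE 0.0716), with adjusted p from 1.48e-08 to 5.6e-06 in edgeR's test; the difference between the partners was not tested.

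Chek1, the effector kinase, was at 30.8 and 25.5 CPM in WT Ctrl, 38.7 and 43.1 CPM in KO1 Ctrl, and 43.6 and 44.6 CPM in KO2 Ctrl. It rose by a log2FC of 0.54 in KO1 (SE 0.103, edgeR's adjusted p = 0.000245) and of 0.65 in KO2 (SE 0.102, edgeR's adjusted p = 4.09e-05), a smaller fold than that of its adaptor Clspn. The number of Clspn counts for each Chek1 count was 0.544 and 0.568 in WT Ctrl, against 1.02 and 1.03 for KO1 Ctrl and 1.10 and 1.11 for KO2 Ctrl.

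Of the 10 genes, Rpa2 alone passed in KO2 against KO1 with the Ctrl vector (log2FC 0.28, SE 0.0726, adjusted p = 0.00754 in edgeR's test), where 18.3% of all genes passed (8.33% higher, 9.96% lower). This call was lost in DESeq2 (adjusted p = 0.0237) and whenever 1 of the 4 libraries was left out (log2FC 0.25 to 0.32, edgeR's adjusted p = 0.0238 to 0.0764). Timeless was the gene lower in KO2 by most, at a log2FC of −0.21 that did not pass (SE 0.0716, edgeR's adjusted p = 0.0397). In the same comparison 11 of 24 S phase and 12 of 20 G2/M markers were higher and 6 of 7 mesenchymal markers lower (median log2FC −1.88), and the part of these markers was not tested.

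The Myc vector was compared with the Ctrl vector within each line. In WT, Myc mRNA itself did not pass (log2FC 0.07, edgeR's adjusted p = 0.31), whereas it rose in KO1 and KO2 (log2FC 1.73 and 1.16), and the table does not separate vector from endogenous Myc transcripts. In the libraries labelled WT Myc, Atr was lower than in WT Ctrl and 7 of the 10 genes were higher, where 44.3% of all genes passed (21.6% higher, 22.7% lower). The same WT Ctrl libraries served here as in the KO comparisons. The median log2FC of the 10 genes was 0.456, against 0.00689 over all genes, and 23 of 24 S phase markers and 11 of 20 G2/M markers were higher. The 3 cholangiocyte markers were lower (median log2FC −1.12), and the part of these markers was not tested.

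Rpa2 was at 41.2 and 42.9 CPM in the libraries labelled WT Myc, against 22.1 and 20.4 CPM in WT Ctrl (log2FC 0.99, SE 0.0796, edgeR's adjusted p = 4.9e-08), while Rpa1 was at 85.6 and 102.5 CPM against 75.5 and 65.1 CPM (log2FC 0.42, SE 0.0868, edgeR's adjusted p = 0.000619). Rpa3, at 28.0 and 25.4 CPM, overlapped with WT Ctrl. Timeless nearly matched Rpa2, at 74.0 and 78.9 CPM (log2FC 0.96, SE 0.0753, edgeR's adjusted p = 3.65e-08), and Clspn reached 26.5 and 32.7 CPM (log2FC 0.93, SE 0.123, edgeR's adjusted p = 1.02e-05). Tipin, Topbp1 and Chek1 rose by log2FC of 0.45 to 0.46 (edgeR's adjusted p from 5.93e-05 to 0.00125). Their levels in the libraries labelled WT Myc were 81.1 and 82.9 CPM for Tipin, 193.6 and 245.1 CPM for Topbp1, and 35.4 and 41.8 CPM for Chek1.

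Atr was the gene that fell, to 34.4 and 51.1 CPM in the libraries labelled WT Myc from 61.0 and 62.6 CPM (log2FC −0.53, SE 0.119, adjusted p = 0.00136 in edgeR's test). The replicate pair labelled WT Myc was the least alike of the groups of the Myc experiment, and its 2 Atr values lay far apart. Its squared difference per gene was 11 in units of counting noise, against 2.21 to 4.52 in the other groups of that experiment. This measure grows with depth, so the shallower HU groups were not set beside it. The Atr log2FC was −0.28 without WT Myc replicate 1 and −0.84 without WT Myc replicate 2. Without WT Ctrl replicate 2, Atr (log2FC −0.51, edgeR's adjusted p = 0.0158), Rpa1 (0.32, 0.0212) and Chek1 (0.33, 0.0369) no longer passed, which left 5 genes, and Chek1 also did not pass without WT Myc replicate 2 (0.33, 0.0105). Topbp1 passed in every such fit, but its log2FC was 0.28 without WT Myc replicate 2.

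In the KO lines, the Myc vector was not accompanied by a common rise. In KO1, where 36.1% of all genes passed (17.9% higher, 18.2% lower), Rpa1 fell from 120.2 and 123.2 CPM to 89.9 and 96.7 CPM in the libraries labelled KO1 Myc (log2FC −0.38, SE 0.0835, edgeR's adjusted p = 0.00123). Clspn fell from 39.7 and 43.8 CPM to 31.7 and 29.0 CPM (log2FC −0.46, SE 0.107, edgeR's adjusted p = 0.00208). In KO2, where 38.8% of all genes passed (20.2% higher, 18.6% lower), Rpa1 fell from 145.2 and 138.1 CPM to 109.9 and 101.4 CPM (log2FC −0.42, SE 0.0821, adjusted p = 0.000445 in edgeR's test). Timeless was the only one of the 10 that rose in a KO line with the Myc vector: in KO2 it went from 67.0 and 65.5 CPM to 94.0 and 94.2 CPM (log2FC 0.51, SE 0.0702, edgeR's adjusted p = 1.89e-05), and in KO1 from 76.0 and 76.96 CPM to 65.2 and 66.3 CPM, which did not pass (log2FC −0.22, SE 0.0712, edgeR's adjusted p = 0.0187). Rpa1 and Clspn lost the call in KO1 without KO1 Ctrl replicate 2 (log2FC −0.37 and −0.38, edgeR's adjusted p = 0.0145 and 0.0343), Rpa1 without KO1 Myc replicate 1 (−0.31, 0.0257), Clspn without KO1 Myc replicate 2 (−0.40, 0.0274), and Rpa1 in KO2 without KO2 Myc replicate 2 (−0.37, 0.0103). The genes that did not pass had log2FC of −0.22 to 0.16 in KO1 and −0.26 to 0.18 in KO2. Among them, Rpa2 was at 39.4 and 35.8 CPM with the label KO1 Myc and at 42.1 and 40.5 CPM with KO2 Myc; its log2FC of −0.23 in KO2 (edgeR's adjusted p = 0.0134) passed with RLE in place of TMM scaling (0.00897). Chek1 was at 46.8 and 44.3 CPM with the label KO1 Myc and 48.5 and 43.9 CPM with KO2 Myc, and Tipin at 79.1 and 77.8 CPM and at 83.4 and 80.6 CPM. Of the S phase markers, 3 were higher and 5 lower in KO1, and 2 and 13 in KO2; of the 7 mesenchymal markers, 7 were lower in KO1 and 6 higher in KO2. Their part in these values was not tested.

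**Figure D3:**
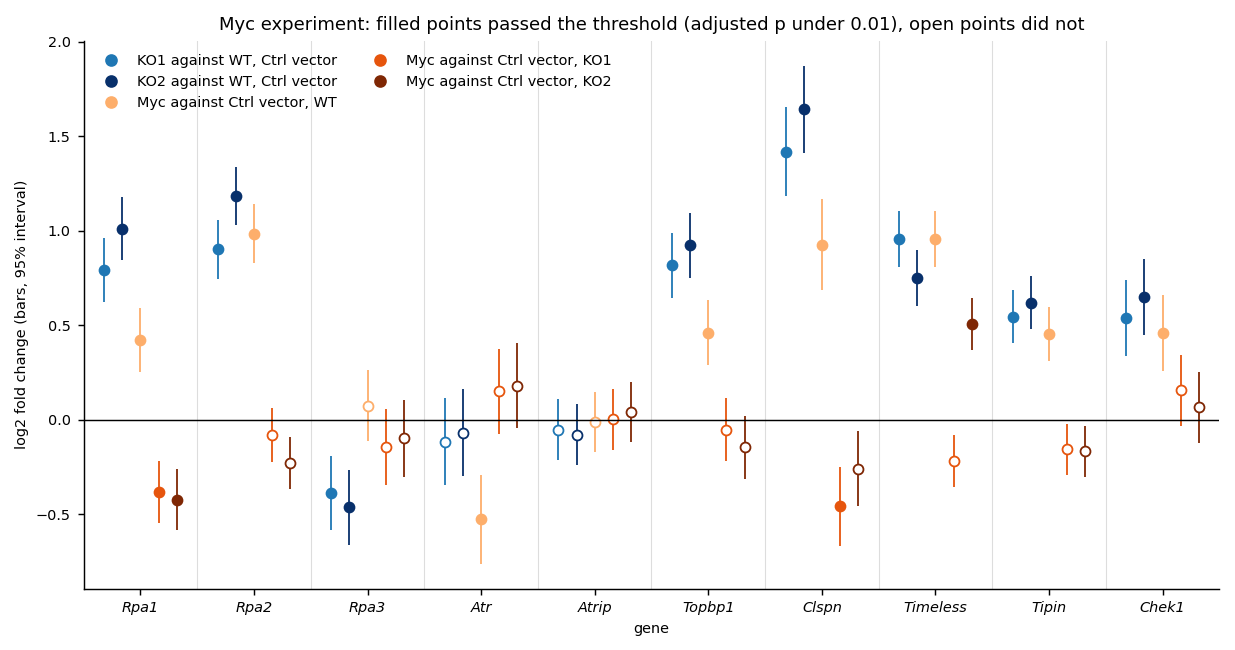
Log2FC of the 10 mRNAs (vertical axis) in 5 comparisons of the Myc experiment, with 95% intervals as bars; filled points passed at an adjusted p below 0.01 and open points did not. Blue points (KO against WT, Ctrl vector) and light orange points (Myc against Ctrl vector, WT), which share the WT Ctrl libraries, lie above 0 for 7 genes, whereas the darker orange points (Myc against Ctrl vector in KO1 and KO2) lie between −0.46 and 0.51.

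The difference between these responses was tested as an interaction. The log2FC with the Myc vector was lower in KO1 than in WT for 6 of the 10 genes and higher for Atr, where 37.3% of all genes passed (19.2% higher, 18.1% lower), and the same held for the same 7 genes in KO2, where 32.8% passed (16.6% higher, 16.2% lower); both tests use the WT Ctrl and WT Myc libraries. For Atr the log2FC was −0.53 in WT, where it passed, against 0.15 in KO1 and 0.18 in KO2, where it did not, and Rpa1 rose in WT and fell in both KO lines. Clspn differed by most in KO1 (−1.39, SE 0.163, edgeR's adjusted p = 3.6e-06) and Rpa2 in KO2 (−1.21, SE 0.107, edgeR's adjusted p = 1.84e-07). For Rpa1, Tipin and Topbp1 the lines gave similar differences, of −0.81, −0.61 and −0.51 in KO1 and −0.85, −0.62 and −0.61 in KO2. For Timeless the difference was −1.18 in KO1 (SE 0.104) and −0.45 in KO2 (SE 0.103), and the lines were not tested against each other. Of the S phase markers, 21 of 24 had a negative difference that passed in each line. Leaving out each library in turn left 5 to 8 calls in both lines. Atr lost the call in KO1 without either WT Ctrl library, KO1 Ctrl replicate 1 or KO1 Myc replicate 2 (0.63 to 0.70), and in KO2 without WT Ctrl replicate 2, KO2 Ctrl replicate 1 or KO2 Myc replicate 1 (0.66 to 0.69). Without WT Myc replicate 1 it passed at 0.43 and 0.46, from 0.68 and 0.71 with all libraries. Topbp1 lost the call in KO1 without WT Ctrl replicate 2, KO1 Ctrl replicate 2 or KO1 Myc replicate 1 (−0.49 to −0.40) and passed at −0.33 without WT Myc replicate 2, and Timeless lost it in KO2 without WT Ctrl replicate 2 or KO2 Ctrl replicate 1 (−0.33 and −0.44). Chek1 (−0.30 and −0.39 with all libraries, edgeR's adjusted p = 0.0862 and 0.0305) passed in both lines without WT Myc replicate 1 (−0.42 and −0.51), and was at −0.17 in KO1 and −0.26 in KO2 without WT Ctrl replicate 2 (edgeR's adjusted p = 0.382 and 0.183) and at −0.18 in KO1 without WT Myc replicate 2 (0.28).

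Compared with the libraries labelled WT Myc, those labelled KO1 Myc differed in 2 genes and those labelled KO2 Myc in 5, where 25.1% (12.6% higher, 12.5% lower) and 35.2% (17.2% higher, 18% lower) of all genes passed. Rpa3 was again lower, at 18.1 and 16.9 CPM in KO1 Myc and 15.7 and 18.6 CPM in KO2 Myc against 28.0 and 25.4 CPM (log2FC −0.61, SE 0.0981, and −0.64, SE 0.0977; edgeR's adjusted p = 0.000155 and 6.02e-05). Both calls held whichever library was left out. Atr was higher, at 62.2 and 64.3 CPM in KO1 Myc and 69.0 and 64.7 CPM in KO2 Myc against 34.4 and 51.1 CPM (log2FC 0.56, SE 0.118, and 0.64, SE 0.117; edgeR's adjusted p = 0.00144 and 0.000304). Without WT Myc replicate 1 these Atr values were 0.31 and 0.39, without WT Myc replicate 2 they were 0.88 and 0.96, and the call in KO1 was lost without KO1 Myc replicate 2 (0.54, edgeR's adjusted p = 0.0144). All of them were positive. In KO2 Myc, Clspn (44.4 and 37.2 CPM, log2FC 0.46), Timeless (94.0 and 94.2 CPM, log2FC 0.30) and Topbp1 (282.8 and 264.2 CPM, log2FC 0.32) were higher as well, with edgeR's adjusted p of 0.00213, 0.00208 and 0.0061. Rpa1 and Rpa2 did not pass in either line. With the compared groups alone in the fit, 1 gene passed in KO1 and 2 in KO2. Without each library in turn, 1 to 4 genes passed in KO1 (4 without WT Myc replicate 2, 1 without KO1 Myc replicate 2) and 2 to 7 in KO2 (3 without WT Myc replicate 1, 7 without WT Myc replicate 2, 2 without KO2 Myc replicate 1, 3 without KO2 Myc replicate 2). In KO2, Topbp1 lost the call without WT Myc replicate 1 (log2FC 0.16, edgeR's adjusted p = 0.0587), KO2 Myc replicate 1 (0.27, 0.0594) or KO2 Myc replicate 2 (0.37, 0.012) and was at 0.50 without WT Myc replicate 2. Clspn lost it without WT Myc replicate 1 (0.32, 0.0166) or KO2 Myc replicate 1 (0.33, 0.046), and Timeless without KO2 Myc replicate 1 (0.30, 0.0142) or replicate 2 (0.30, 0.014). Trim33 mRNA goes against the labels in this KO1 comparison and did not pass in this KO2 comparison, as stated above.

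In the order of their levels across the Myc experiment, 7 of the 10 genes had both WT Ctrl libraries below every other library, as did 17.5% of all genes. Above it the orders differed. For Rpa1 the order ran KO1 Myc, WT Myc, KO2 Myc, KO1 Ctrl and KO2 Ctrl, and each of the first 3 overlapped with its neighbour. For Rpa2 it ran KO1 Myc, KO1 Ctrl, KO2 Myc, WT Myc and KO2 Ctrl, with KO2 Myc and WT Myc overlapping. Clspn ran WT Myc, KO1 Myc, KO2 Myc, KO1 Ctrl and KO2 Ctrl, with overlaps of the first and of the second pair of these. Timeless, Chek1 and Atr had KO2 Myc on top, without overlap for Timeless (94.1 CPM ± 0.127, SD, n = 2) and Atr, and Atr alone had WT Myc at the bottom (42.7 CPM ± 11.8, SD, n = 2). For Atrip every pair of neighbours overlapped, from 23.1 CPM ± 1.4 in KO2 Ctrl to 24.4 CPM ± 1.16 in WT Ctrl (SD, n = 2).

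The genes of the table with the most similar pattern were sought by Pearson's r over the 12 libraries of the Myc experiment, among 10296 genes with a mean of at least 5 CPM. Libraries of a group share their treatment, so that r reflects mainly the 6 group means. Rpa1 was closest to Rrm1 (r = 0.994), the large subunit of ribonucleotide reductase, then Tubb5 and Orc1. Rpa2 was closest to Tcf19 (r = 0.997), then Gmnn and Pold3, and Clspn to Nasp (r = 0.98), then Ttk and Fignl1. The neighbours of Timeless were Ephx1 (r = 0.984), Acat1 and Stim1, those of Tipin Lipt2 (r = 0.971), Txn1 and Jup, and those of Topbp1 Slc6a6 (r = 0.983), Dzip1l and Baz1b. Chek1 was followed by Herc3 (r = 0.974), Nkain1 and Rfc5. Rpa3 was closest to Acaa1b (r = 0.98), Hes1 and Ecscr, Atr to Mdm4 (r = 0.956), Helz and Zfp970, and Atrip, the gene that varied least, to Tm2d3 (r = 0.864), Mettl25 and Fastk.

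Levels were set side by side per kilobase of exon in the same annotation, with all annotated exons of a gene merged. The order between genes depends on that length, and the transcripts in use in these cells were not determined. In the Myc experiment, Tipin (group means 49.5 to 76.0 CPM per kb) and Topbp1 (30.5 to 57.8 CPM per kb) were the most abundant. The RPA mRNAs followed, at 12.6 to 25.4 CPM per kb for Rpa1, 15.1 to 23.5 for Rpa3 and 7.11 to 16.2 for Rpa2. Timeless (6.44 to 15.4 CPM per kb), Chek1 (6.06 to 9.94), Atr (5.03 to 7.87), Clspn (2.17 to 6.79) and Atrip (4.54 to 4.80) were lower. In WT Ctrl, Rpa3 was above Rpa1 per kb (22.3 ± 1.69 against 12.6 ± 1.32, SD, n = 2), and in KO2 Ctrl below it (16.2 ± 0.209 against 25.4 ± 0.9, SD, n = 2).

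Treatment with HU was used to stall forks directly, and few of these mRNAs passed the test. In WT cells none of the 10 passed, where 9.83% of all genes did (6.39% higher, 3.44% lower); at an unadjusted p below 0.05 there were 2 (Chek1 and Clspn), and DESeq2 passed 0. In KO cells Clspn alone passed, where 6.45% of all genes did (4.65% higher, 1.8% lower), and DESeq2 passed 0. The test of a different response in KO and WT passed none of the 10 (0.0714% of all genes passed, 0 of the 10 at an unadjusted p below 0.05, 0 in DESeq2), with log2FC differences of −0.19 to 0.32. In simulated counts of this depth, 15% of genes given an absolute log2FC of 0.5 and 78% of those given 1 were recovered for HU in WT cells. The simulation gave all genes 1 common spread and changed fewer genes than passed here, so its shares do not carry over to the 10 genes. Their own SE for HU in WT ran from 0.11 (Topbp1) to 0.31 (Rpa3). Among G2/M markers, 12 of 20 were lower with HU in WT and 11 in KO, and their sum was 4786 to 5633 CPM with vehicle and 3906 to 4237 CPM with HU; 2 of 24 S phase markers were higher in each line and none was lower.

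**Figure D4:**
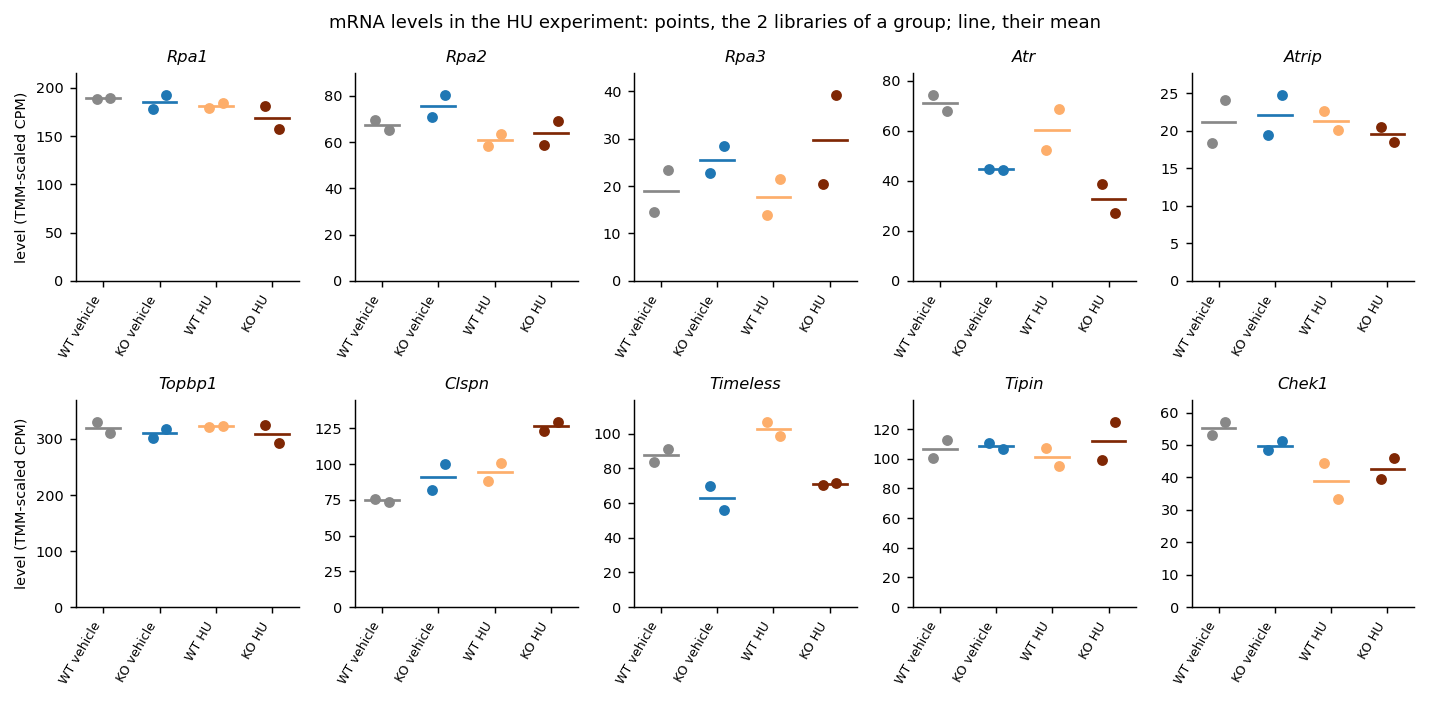
Level of each of the 10 mRNAs (vertical axis, TMM-scaled CPM, from 0) in the 4 groups of the HU experiment; points are the 2 libraries of a group and lines their mean. Atr and Timeless are lower in all 4 KO libraries than in the 4 WT libraries, and the KO HU libraries have the highest Clspn levels (123.4 and 129.6 CPM).

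Clspn was at 75.8 and 73.7 CPM in WT with vehicle, 88.5 and 101.1 CPM in WT with HU, 82.1 and 100.2 CPM in KO with vehicle, and 123.4 and 129.6 CPM in KO with HU. Both KO libraries with HU lay above the other 6. In KO, Clspn rose with HU (log2FC 0.47, SE 0.145, edgeR's adjusted p = 0.0367), and in WT it was higher by a log2FC of 0.34 that did not pass (SE 0.152, edgeR's adjusted p = 0.163). The call in KO was lost without KO vehicle replicate 1 (log2FC 0.34, edgeR's adjusted p = 0.299), KO HU replicate 1 (0.50, 0.138) or KO HU replicate 2 (0.43, 0.213), and in DESeq2 (0.46, 0.129). Chek1 was lower with HU in WT, at 44.5 and 33.2 CPM against 53.1 and 57.1 CPM, without passing (log2FC −0.50, SE 0.199, edgeR's adjusted p = 0.104), and was at 39.6 and 45.8 CPM against 48.4 and 51.1 CPM in KO. The number of Clspn counts for each Chek1 count was 1.29 and 1.43 in WT with vehicle, 1.99 and 3.04 in WT with HU, 1.70 and 1.961 in KO with vehicle, and 2.83 and 3.12 in KO with HU.

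The other genes did not pass with HU in either line. Rpa1 was at 188.9 and 189.5 CPM in WT with vehicle and at 179.4 and 183.9 CPM with HU, and Topbp1 at 330.7 and 310.1 CPM and 322.0 and 323.5 CPM. Their intervals were among the narrowest, at a log2FC of −0.29 to 0.18 for Rpa1 and −0.20 to 0.22 for Topbp1. Rpa3 had the fewest counts and the widest interval, −0.72 to 0.49. Rpa2 (69.4 and 65.4 CPM with vehicle, 58.2 and 63.7 CPM with HU in WT), Atrip (18.4 and 24.1, 22.6 and 20.1 CPM) and Tipin (100.2 and 112.8, 107.2 and 95.2 CPM) did not pass, and of these Atrip and Tipin overlapped with and without HU. In KO with HU, Rpa1 was at 181.0 and 157.3 CPM, Rpa2 at 58.7 and 69.2, Atrip at 20.5 and 18.6, Tipin at 99.3 and 124.9, and Topbp1 at 324.2 and 292.4 CPM.

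Between KO and WT, the HU experiment gave another list than the Ctrl vector of the Myc experiment. With vehicle, Atr and Timeless were lower in KO and none of the 10 was higher, where 12% of all genes passed (6.29% higher, 5.74% lower). With HU, the same pair was lower and Clspn was higher, where 11% passed (5.75% higher, 5.25% lower). Of the S phase markers, 1 was higher in KO with vehicle and none with HU, and none was lower. Of the 5 mesenchymal markers listed, 3 were lower with vehicle (median log2FC −0.98), while 2 were lower and 1 higher with HU (−0.83); their part was not tested. The experiments have separate libraries, tables and fits, so their values are set side by side without a test.

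Atr was at 74.1 and 68.0 CPM in WT and at 44.7 and 44.4 CPM in KO with vehicle, and at 52.2 and 68.6 CPM in WT and at 38.5 and 27.3 CPM in KO with HU. All 4 KO libraries lay below all 4 WT libraries. The log2FC was −0.67 with vehicle (SE 0.193, edgeR's adjusted p = 0.0143) and −0.87 with HU (SE 0.2, adjusted p = 0.00167 in edgeR's test), against −0.12 and −0.07 for KO1 and KO2 with the Ctrl vector. Timeless was at 84.0 and 91.0 CPM in WT and at 69.9 and 56.1 CPM in KO with vehicle, and at 106.9 and 98.7 CPM in WT and at 70.3 and 71.5 CPM in KO with HU. It was lower by a log2FC of 0.48 with vehicle (−0.48, SE 0.162, edgeR's adjusted p = 0.0394) and of 0.54 with HU (−0.54, SE 0.156, edgeR's adjusted p = 0.0151), whereas it was higher in KO1 and KO2 with the Ctrl vector (0.96 and 0.75). Clspn was higher in KO with HU (log2FC 0.42, SE 0.144, edgeR's adjusted p = 0.0482) and, without passing, with vehicle (0.29, SE 0.153, edgeR's adjusted p = 0.23).

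These calls rested on few libraries. With vehicle, Atr was lost without WT vehicle replicate 1 (log2FC −0.61, edgeR's adjusted p = 0.0809), KO vehicle replicate 1 (−0.69, 0.0545) or KO vehicle replicate 2 (−0.66, 0.0841), and Timeless without WT vehicle replicate 1 (−0.54, 0.0628), WT vehicle replicate 2 (−0.43, 0.186) or KO vehicle replicate 2 (−0.32, 0.336). With HU, Atr was lost without WT HU replicate 2 (−0.66, 0.117) or KO HU replicate 2 (−0.64, 0.109), and Timeless and Clspn whichever of the 4 libraries was left out (edgeR's adjusted p from 0.0683 to 0.185 and from 0.106 to 0.387). DESeq2 passed neither gene with vehicle and Atr alone with HU. The direction of each of these values was kept in every such fit.

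Rpa3, lower in both KO lines of the Myc experiment, was not lower here: it was at 14.6 and 23.3 CPM in WT and 22.8 and 28.4 CPM in KO with vehicle, and at 14.0 and 21.5 CPM in WT and 20.5 and 39.1 CPM in KO with HU. Its groups overlapped and the values did not pass (log2FC 0.43, 95% interval −0.16 to 1.02, with vehicle; 0.74, 0.17 to 1.32, edgeR's adjusted p = 0.089, with HU). These values moved as single libraries were left out. With vehicle, the log2FC was 0.14 without WT vehicle replicate 1, 0.26 without KO vehicle replicate 2 and 0.81 without WT vehicle replicate 2 (edgeR's adjusted p from 0.203 to 0.871). With HU, it was 0.21 without KO HU replicate 2 and 0.46 without WT HU replicate 1 (edgeR's adjusted p = 0.829 and 0.54), and 1.15 without KO HU replicate 1, where it passed (edgeR's adjusted p = 0.0221). Counts of Rpa3 were among the lowest here, from 34 in 1 library. Rpa1, Rpa2, Tipin, Topbp1 and Chek1, all higher in KO1 and KO2 with the Ctrl vector, had log2FC of −0.15 to 0.17 between KO and WT in the HU experiment, none of which passed. With vehicle Rpa2 was at 70.7 and 80.2 CPM in KO against 69.4 and 65.4 CPM in WT, and Rpa1 at 178.1 and 192.1 CPM against 188.9 and 189.5 CPM. Tipin was at 110.6 and 106.6 CPM in KO with vehicle, Topbp1 at 302.1 and 317.7 CPM, and Atrip at 19.5 and 24.7 CPM.

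**Figure D5:**
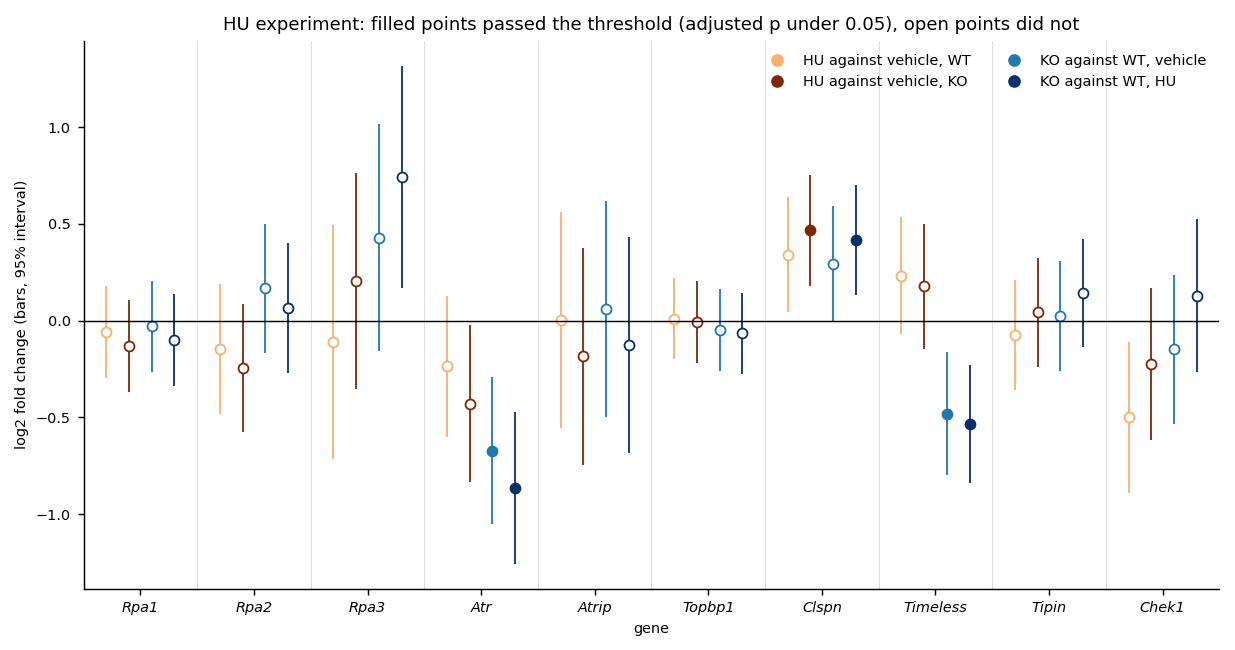
Log2FC of the 10 mRNAs (vertical axis) in 4 comparisons of the HU experiment, with 95% intervals as bars; filled points passed at an adjusted p below 0.05 and open points did not. The filled points are Atr and Timeless (KO against WT, −0.87 to −0.48) and Clspn (HU against vehicle in KO, 0.47, and KO against WT with HU, 0.42), and the widest intervals are those of Rpa3 and Atrip.

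Other genes of the pathway were taken from 5 lists of 44 genes in all. With the Ctrl vector, 23 were higher and 5 lower in KO1, and 26 and 5 in KO2, where 52.2% and 49.9% of all genes passed in either direction. Of 9 factors that bind RPA or remodel forks, 6 were higher and 1 lower in KO1, and 5 and 2 in KO2. Of 9 regulators of Chk1, 4 were higher and none lower in each line, and of 11 Chk1 targets, 6 were higher and 2 lower in KO1, and 8 and 1 in KO2. Of 6 genes of the 9-1-1 clamp, which brings Topbp1 to damaged forks, and of its loader, 1 was higher and 2 were lower in each line. Of 9 genes of the neighbouring ATM arm, 6 and 8 were higher. Among the genes with the largest changes, Cdc7, the kinase that fires origins, was at 17.6 and 19.3 CPM in KO1 Ctrl and 21.0 and 18.5 CPM in KO2 Ctrl against 8.06 and 9.43 CPM in WT Ctrl (log2FC 1.08 and 1.17, edgeR's adjusted p = 2.02e-06 and 7.43e-07). Wdhd1 (And-1), a fork protein, rose by log2FC of 1.07 and 1.33, and Tlk2, a histone chaperone kinase restrained by Chk1, fell by 0.98 and 0.87 on the log2 scale (edgeR's adjusted p from 2.56e-09 to 6.14e-07). Nek1 was lower in KO1 (log2FC −0.55), and Primpol, the primase that restarts stalled forks, in KO2 (log2FC −1.20, from 12.9 and 12.4 CPM to 5.42 and 5.59 CPM).

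With the Myc vector in WT, where 44.3% of all genes passed, 18 of the 44 were higher and 5 lower, with Zranb3, a fork remodeler, and Wdhd1 among the rises (log2FC 1.10 and 0.82) and Tlk2 and Nek1 among the falls (−0.61 and −0.47). In KO1 and KO2, where 36.1% and 38.8% of all genes passed, the Myc vector gave 7 and 9 higher and 5 and 7 lower, shares of the list that do not exceed those of all genes. Primpol was higher in both (log2FC 0.48 and 1.33), Prkdc in KO1 (0.54) and Zranb3 in KO2 (0.77), while Cdk2 and Cdk1 were lower in KO1 (−0.49 and −0.42) and Nbn and Fbxo6 in KO2 (−0.58 and −0.46). Against the libraries labelled WT Myc, where 25.1% and 35.2% of all genes passed, 5 of the 44 were higher and 2 lower in KO1 Myc. In KO2 Myc, 15 were higher and 1 lower. Usp7, a deubiquitinase, was higher (log2FC 0.61 and 0.59) and Fbxo6, which marks Chk1 for destruction, was lower (−0.33 and −0.62) in both lines. Prkdc was higher (0.66) and Cdk2 lower (−0.37) in KO1, and Mdc1 was higher in KO2 (0.61). Between KO2 and KO1 with the Ctrl vector, where 18.3% of all genes passed (8.33% higher, 9.96% lower), 3 of the 44 were higher and 2 lower. Cdc25b (log2FC 0.47), Plk1 (0.37), Primpol (log2FC −0.82) and Cdk2 (−0.29) were among them.

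With HU in WT, where 9.83% of all genes passed, 2 of the 43 genes listed were higher and 5 lower, and in KO, where 6.45% passed, 3 and 3. Ppm1d, the phosphatase that switches the checkpoint off, was at 19.3 and 29.3 CPM in WT with vehicle and 37.5 and 45.0 CPM with HU (log2FC 0.75, SE 0.234, edgeR's adjusted p = 0.0268), and in KO it rose as well (0.96, SE 0.231, edgeR's adjusted p = 0.00339). Tlk2 rose in both (log2FC 0.51 and 0.59). Plk1, which has Claspin destroyed for recovery from the checkpoint, fell from 157.6 and 168.8 CPM to 72.5 and 61.3 CPM in WT (log2FC −1.28) and by 1.39 on the log2 scale in KO. H2afx, the histone that ATM and Atr phosphorylate, fell by 1.30 in WT and 1.45 in KO on the log2 scale. Plk1 is also a G2/M gene, and 12 and 11 of the 20 G2/M markers were lower in the same comparisons; their part in the falls of Plk1 and H2afx was not tested. Between KO and WT, 12% of all genes passed with vehicle and 11% with HU. Rhno1, a partner of the 9-1-1 clamp and Topbp1, was higher with vehicle (log2FC 0.76) and with HU (log2FC 0.82), and Cdc25c was lower with vehicle (log2FC −0.78). No other of the 43 passed in either comparison.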

How the data were processed

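RNA-seq was analysed from 2 gene-level tables of read counts, 12 libraries in 6 groups (Myc experiment) and 8 libraries in 4 groups (HU experiment). These counts are whole numbers as deposited by the authors, per the labels and the study's methods after demultiplexing with bcl2fastq (version 2.20), FastQC (0.11.5), STAR alignment (2.5.4) to mm9 and edgeR (3.26.8). The counting program was not given in the sources used here, and sources differ on the RNA and library kits. The other 8 deposited tables hold the authors' own comparisons (log2 fold change, average log2 CPM, F, p and adjusted p) and were not used.

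Samples were grouped by their labels. Counts were fitted per experiment with all groups in 1 model (edgeR 4.0.16 in R 4.3.3, TMM scaling, quasi-likelihood test, Benjamini-Hochberg adjustment over all genes), with thresholds on the adjusted p of 0.01 and 0.05. The filterByExpr step removed no gene; 298 and 168 rows without a symbol stayed in the fits. Intervals are 95%. The fit was tested on simulated counts with 1 spread common to all genes. For KO1 against WT with the Ctrl vector (13107 genes), 83% of genes given an absolute log2FC of 0.5 and 100% of those given 1 were recovered. Among counts from 1 to 50, even numbers made up 71.9% in the HU experiment and 48.4% in the Myc experiment.

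All 10 genes are named whatever their values. Of the other pathway genes, up to 2 rises and 2 falls per comparison are named, the largest that passed without overlap between groups, and for each gene the 3 with the highest Pearson's r. The 10 genes and the lists were chosen with earlier results of these data known. Alternatives were DESeq2 (1.42.0), RLE scaling, a filter of 5 CPM and none, the other threshold, the compared groups alone, a replicate block, halved counts in the HU table, and each library left out. Python 3.11.15, pandas 2.3.3 and matplotlib 3.10.9 were used for summaries and plots.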

Additional observations from a re-analysis of the deposited data

Results flagged for a closer look

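In the Myc experiment, 14 differences between a KO line and WT in the response to the Myc vector passed the interaction test in edgeR. Both lines were set against the same 4 WT libraries. Of all genes, 37.3% passed this test in KO1 and 32.8% in KO2. Atr in both lines, Topbp1 in KO1 and Timeless in KO2 lost the call without single libraries, as given above. In KO1 the difference in log2FC was −0.81 for Rpa1 (adjusted p = 4.12e-05), −1.06 for Rpa2 (7.28e-07), −1.39 for Clspn (3.6e-06), −1.18 for Timeless (1.44e-07), −0.61 for Tipin (0.000102), −0.51 for Topbp1 (0.00243) and 0.68 for Atr (0.00297). In KO2 it was −0.85 for Rpa1 (adjusted p = 2.81e-05), −1.21 for Rpa2 (1.84e-07), −1.19 for Clspn (1.77e-05), −0.45 for Timeless (0.00197), −0.62 for Tipin (9.83e-05), −0.61 for Topbp1 (0.000748) and 0.71 for Atr (0.00233). The negative values accompany WT Ctrl levels below those of every other group and S phase marker sums of 1904 to 2008 CPM there, whose part was not tested. The positive values for Atr accompany the low and widely spaced levels in the libraries labelled WT Myc (34.4 and 51.1 CPM).

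Between the KO lines with the Ctrl vector, Rpa2 was higher in KO2 by a log2FC of 0.28 (edgeR's adjusted p = 0.00754), a call that was lost whichever of the 4 libraries was left out. Groups of 2 libraries were too small to be searched for single deviating libraries.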

How the results depend on the processing

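Of 1820 values of single genes under an alternative, 1649 kept their direction and their side of the threshold, 72 lost the call, 29 gained one and 70 changed sign. None of the 70 had passed in either fit (lowest adjusted p with all libraries 0.449 in edgeR). They include both ends of the range of HU interaction differences: that of Atr went from −0.19 to 0.013 without WT HU replicate 2 and 0.027 without KO HU replicate 2, and that of Rpa3 from 0.32 to −0.057 without WT vehicle replicate 2 and −0.215 without KO HU replicate 2. Among single values with an adjusted p under 0.5, the sign changed for Rpa3 with the Myc vector in KO2, whose log2FC ran from −0.23 to 0.019 as libraries were left out (0.019 without KO2 Myc replicate 1).

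Counts of the 10 genes that passed stayed within 1.5-fold for KO1 and KO2 against WT with the Ctrl vector, for the Myc vector in WT and KO1 and for all 3 interactions under every alternative other than leaving out a library, and for HU in WT under all. DESeq2 gave 0 in place of 1 for KO2 against KO1 (2010 genes in all passed), 0 in place of 1 for HU in KO (451 genes against 723), 0 in place of 2 for KO against WT with vehicle (751 against 1349) and 1 in place of 3 with HU (736 against 1233). With the other threshold (0.05 in the Myc, 0.01 in the HU experiment), the counts were 2 for KO2 against KO1 (3748 genes against 2398), 4 for the Myc vector in KO2, 4 for KO1 against WT with the Myc vector, 0 for HU in KO, 0 for KO against WT with vehicle and 1 with HU. With the compared groups alone, they were 4 for KO2 against KO1 (4029 genes), 5 for the Myc vector in KO2, 1 and 2 for KO1 and KO2 against WT with the Myc vector (1541 and 2775 genes against 3291 and 4614) and 1 for KO against WT with vehicle. The causes were not tested.

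Leaving out each library in turn gave 7 to 8 calls for KO1 and for KO2 against WT with the Ctrl vector, 0 to 0 for KO2 against KO1, 5 to 8, 0 to 2 and 1 to 2 for the Myc vector in WT, KO1 and KO2, 1 to 4 and 2 to 7 for KO1 and KO2 against WT with the Myc vector, and 5 to 8 for each Myc interaction. In the HU experiment it gave 0 to 0 for HU in WT, 0 to 1 for HU in KO, 0 to 1 and 0 to 2 for KO against WT with vehicle and with HU, and 0 to 0 for the interaction.

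Deviations of same-numbered replicates correlated at −0.356 to 0.485 between groups of the Myc experiment and at −0.0241 to 0.0875 in the HU experiment. Both ends of the wider range were between Myc-vector groups, WT Myc with KO1 Myc (0.485) and with KO2 Myc (−0.356). A pairing of libraries there, under other numbers than those given, was not tested. With the numbers as a replicate block, the counts were 8, 8 and 1 for the comparisons with the Ctrl vector, 8, 2 and 2 for the Myc vector in WT, KO1 and KO2, 3 and 5 for KO1 and KO2 against WT with the Myc vector, 7 and 7 for the Myc interactions, and 0, 1, 2, 3 and 0 in the HU experiment; the call gained was Topbp1 in KO1 with the Myc vector (adjusted p = 0.00814).

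Totals were lower in the HU experiment (2315327 to 3082202 counts), where the intervals of Rpa3 were over 1 log2 unit wide; the part of depth and of the spread between libraries in that width was not separated.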
